A study of Homo sapiens with 60 samples.

Results

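The comparison set 3 libraries of MDA-MB-231 cells exposed to 1000 nM of BAY2506856 for 24 h against 6 libraries of cells exposed to DMSO, the solvent, for 24 h. The samples were chosen by these labels alone, 9 of the 60 in the series, and all 15866 tested genes were described. MDA-MB-231 is an established triple-negative breast cancer line, so every value comes from 1 line. The other libraries hold the same cells at 100 and 300 nM and at 1, 3 and 6 h, and they enter here only where dose or time is compared. Times follow each sample's label; the series' design text mentions a 24 h harvest only. The labels name no target for the compound and do not say whether replicates were separate cultures. The p-values therefore measure the spread between libraries within groups, estimated over all 60 and not from these 9 alone.

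Cells in culture share their RNA between programs for growth and division and programs for differentiated functions. Genes for dividing cells are largely held under the E2F factors, the DREAM complex and MYC, and genes for quiescent or starved cells under factors such as the FOXO proteins. YAP1 and TAZ, co-activators that answer to cell adhesion and to actin tension, feed into the first kind, and CYR61 and CTGF are their best known target genes.

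CYR61 stood at 10.4, 11.6 and 14.6 FPKM in the treated libraries and at 214 to 237 (median 222) in DMSO, and CTGF at 5.38, 6.41 and 6.76 against 70.6 to 92.1 (median 85.6). FPKM are read numbers scaled to the length of the transcript and the depth of the library, so they are levels per length. No treated library came near the DMSO range for either gene.

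The 9 libraries differed in depth and in a further respect that the labels do not describe. The recovered depth was 2.27, 31.8 and 2.58 M reads in treated replicates 1, 2 and 3, and 0.475 to 13.0 M in DMSO. An index of 20 pseudogene and other non-coding names split the series into 2 kinds of library, and 6 early DMSO libraries stood apart as a further kind by high MT-ND6. Treated replicates 1 and 3 and DMSO replicate 2 were of the second kind, and the other 6 were of the first. DMSO replicate 2 was also the shallowest library of all. Counts below are those of limma over all libraries. Beside each list count stands the number that held, meaning genes called the same way in 3 analyses, which are limma over all libraries, limma with terms for the library kind, and limma-voom on recovered read numbers. The first kind alone leaves 1 treated library against 5 of DMSO, a lone sample that is assumed to vary like the other groups.

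Of the 15866 genes, 5506 passed an adjusted p of 0.05 (34.7%), 3025 higher and 2481 lower (19.1% and 15.6%). Every list count below is to be read against these shares, and a count near them says nothing particular about its list. Of these, 2174 higher and 2173 lower genes held in all 3 analyses (13.7% each), and 3746 of them were also called within the first library kind. Higher genes made up 54.9% of the calls, and 45.0% with voom. At least a 2-fold change was reached by 825 called genes (5.2%), 373 higher and 452 lower (2.35% and 2.85%). All 3 treated libraries lay above all 6 of DMSO in 1950 genes (12.3%) and below them in 1674 (10.6%). The median change over all genes was 0.03 on the log2(FPKM + 0.5) scale, which is used for every log2 change below and understates the change of genes near 0. Protein-coding genes were called more often (24.1% higher, 17.9% lower of 10890) than pseudogenes (7.94% and 12.4% of 2180). Of 132 counts over gene lists, 24, 11 and 20 moved by over 1.5 times without treated replicate 1, 2 and 3, and 4 to 8 without each DMSO replicate. Most of those were counts of 5 or fewer, from which nothing is read.

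**Figure D1:**
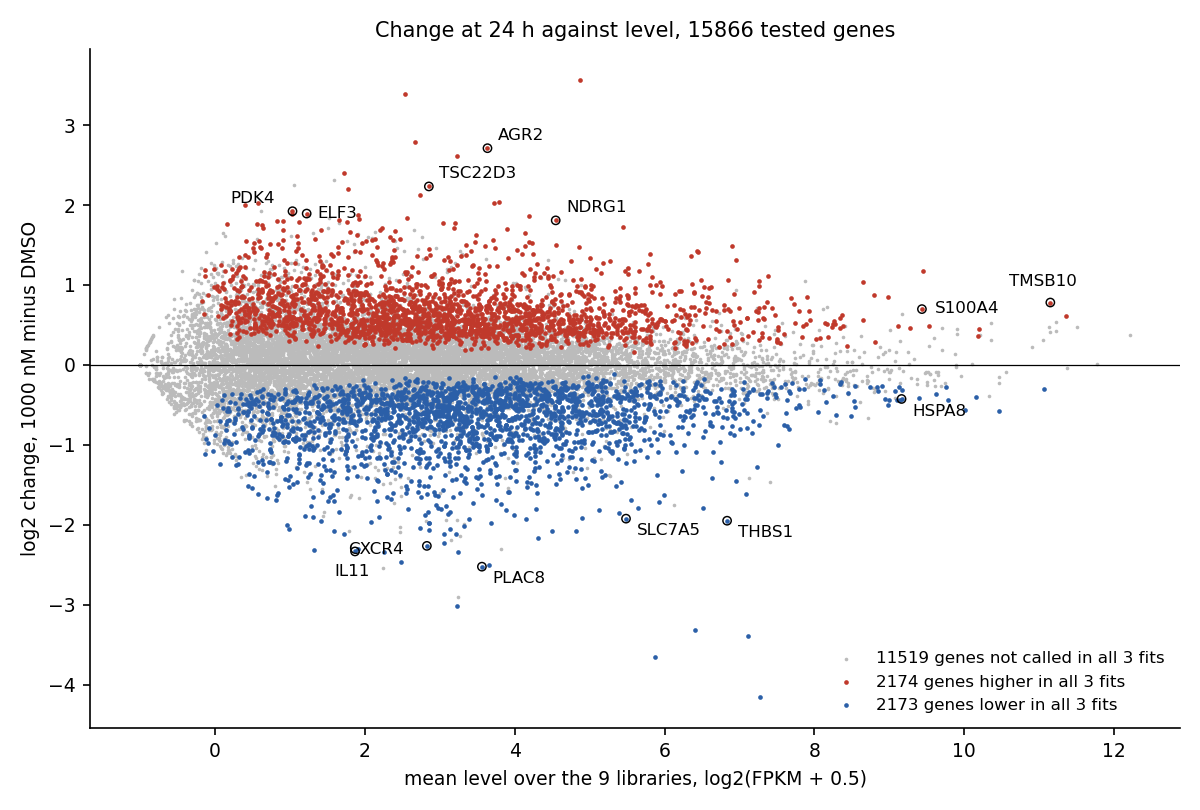
Log2 change at 24 h (1000 nM minus DMSO) of the 15866 tested genes against their mean level over the 9 libraries in log2(FPKM + 0.5). Red and blue points are the 2174 higher and 2173 lower genes called in all 3 analyses, grey points are the rest, and rings mark genes named in the text; calls are spread over the whole range of levels.

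YAP1/TAZ target, KLF and S phase genes were set aside, as were genes named in earlier results of these data. Among the others that met the naming rule, the 14 largest rises included TSC22D3, GJB2, ANGPTL2 and NDRG1. NOX5, PI16 and AGR2, given below, rose more, by 3.39, 2.79 and 2.71. TSC22D3, which encodes the glucocorticoid-induced leucine zipper protein GILZ, stood at 12.8, 15.9 and 15.3 FPKM in the treated libraries and at 1.73 to 3.28 (median 2.86) in DMSO. The lowest treated library lay well above the highest DMSO library. The change was 2.23 (SE 0.12, adjusted p = 5.13e-21), and it was already 1.11 at 6 h.

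GJB2, the gap junction protein connexin 26, stood at 25.4, 24.6 and 32.2 FPKM against 5.37 to 8.51 (median 5.97). ANGPTL2, a secreted angiopoietin-like protein, was at 25.6, 30.1 and 22.5 FPKM against 4.78 to 6.85 (median 6.27). NDRG1, a stress and differentiation gene, was at 41.0, 52.7 and 38.7 FPKM against 8.62 to 14.3 (median 12.8). The groups did not overlap for any of these genes, with changes of 2.04 (SE 0.12), 2.02 (SE 0.13) and 1.81 (SE 0.12).

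The membrane raft protein gene MALL rose by 1.86 (SE 0.12), from a DMSO median of 9.91 FPKM to 31.9 to 40.3. RASD1, a Ras-like GTPase inducible by dexamethasone, rose by 1.84 (SE 0.27), and PLXNA2, a semaphorin receptor, by 1.83 (SE 0.14). ELF3, an ETS factor of epithelial cells, rose by 1.89 (SE 0.15) but remained at 3.08 to 5.35 FPKM. TMPRSS2, a membrane serine protease of secretory epithelia, went from a DMSO median of 0.633 to 2.07 to 3.68 FPKM. The monocarboxylate transporter gene SLC16A4 rose by 1.79 (SE 0.19), and CFP, which encodes the complement factor properdin, by 1.81 (SE 0.34).

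PDK4, the kinase that shuts off pyruvate dehydrogenase in fasting tissue, stood at 4.18, 2.32 and 4.11 FPKM against 0.308 to 0.914 (median 0.50). All 3 treated libraries lay above all 6 of DMSO, and the change was 1.92 (SE 0.16, adjusted p = 7.15e-14). CREB3L3, a membrane-bound transcription factor of lipid metabolism, and C9orf152 started from DMSO medians of 0.203 and 0.151 FPKM. Their changes were 2.03 and 2.0 on the scale used here, and 3.13 and 3.50 with voom, which does not add 0.5 FPKM.

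NOX5, PI16 and AGR2 were always named, because earlier results of these data were known. NOX5, a calcium-activated NADPH oxidase, stood at 13.0, 16.2 and 13.2 FPKM against 0.817 to 1.08 (median 0.877). PI16, a secreted peptidase inhibitor, was at 14.7, 17.8 and 10.3 FPKM against 0.886 to 2.21 (median 1.69). AGR2, a disulfide isomerase of mucus-secreting cells, was at 29.7, 26.7 and 27.8 FPKM against 3.19 to 4.27 (median 3.98). Every treated library lay several fold above every DMSO library.

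**Figure D2:**
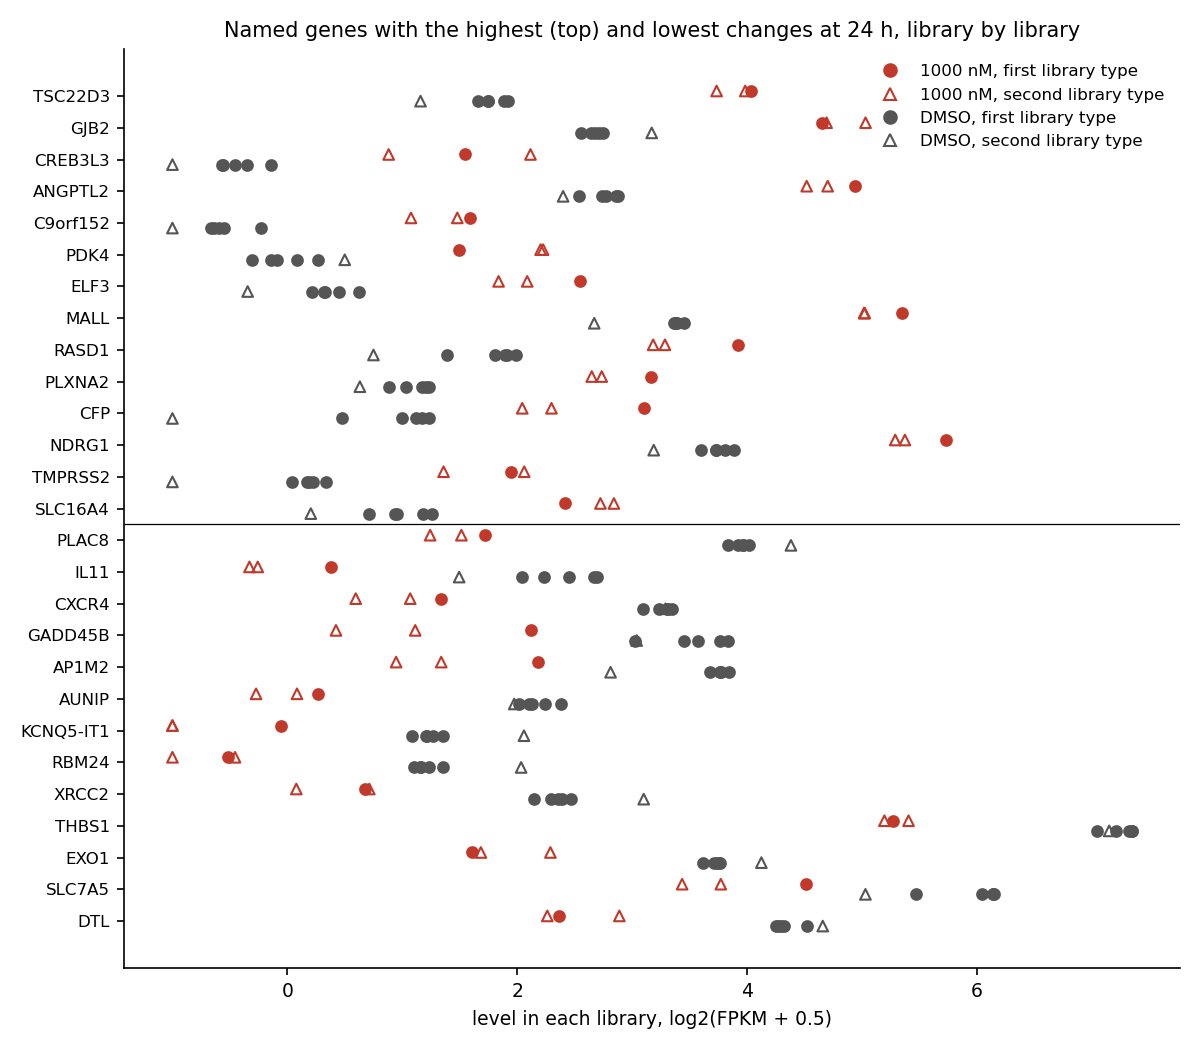
Level of 14 genes with the highest and 13 with the lowest change under the naming rule, in each of the 3 treated (red) and 6 DMSO (grey) libraries. Levels are in log2(FPKM + 0.5). Genes set aside or named before, such as NOX5 and CYR61, are not shown. Circles are the first library kind and triangles the second; for each gene the red and grey points do not overlap, and DMSO replicate 2 (grey triangle) is often the outermost DMSO point.

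By the same rule, the 14 largest falls included PLAC8, CXCR4, IL11 and GADD45B. CYR61 and CTGF, outside the rule, changed by -4.15 and -3.66. PLAC8, a small cysteine-rich protein, stood at 1.87, 2.79 and 2.36 FPKM in the treated libraries against 13.8 to 20.4 (median 15.1) in DMSO. CXCR4, the receptor of the chemokine CXCL12, was at 1.01, 2.03 and 1.60 FPKM against 8.06 to 9.70 (median 9.34). IL11, a cytokine of the IL-6 family, was at 0.337, 0.803 and 0.296 FPKM against 2.32 to 5.98 (median 4.59). No treated library reached the DMSO range, and the changes were -2.52 (SE 0.10), -2.26 (SE 0.13) and -2.33 (SE 0.27).

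GADD45B, a stress sensor gene, stood at 0.841, 3.86 and 1.66 FPKM against 7.64 to 13.8 (median 10.9), a change of -2.23 (SE 0.25). AP1M2, the clathrin adaptor subunit of epithelial cells, was at 2.03, 4.04 and 1.43 FPKM against 6.53 to 13.9 (median 13.1), a change of -2.12 (SE 0.18). For both genes replicate 2, the deep library of the first kind, was the highest of the 3 treated libraries. Within the first kind the changes were -1.40 and -1.58.

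AUNIP, which binds Aurora A kinase, fell by 2.12 and DTL, a ubiquitin ligase receptor of S phase, by 1.88. RBM24, an RNA-binding protein of muscle, was at 0, 0.198 and 0.229 FPKM against 1.65 to 3.60 (median 1.80). Its change of -2.0 became -3.41 with voom. KCNQ5-IT1, an intronic transcript of a potassium channel gene, was listed at 0, 0.462 and 0 FPKM against 1.62 to 3.67, and strand-aware counting is not stated for these values.

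Among abundant messages, the 8 largest gains in FPKM under the naming rule included TMSB10 and S100A4. TMSB10, an actin monomer-binding thymosin, stood at 3210, 3300 and 2920 FPKM against 1690 to 1940 (median 1840). S100A4, a calcium-binding protein linked to motility, was at 887, 980 and 917 FPKM against 510 to 628 (median 573). Neither gene's groups overlapped, and the changes were 0.78 (SE 0.09) and 0.70 (SE 0.10). The cystatin gene CST1 (0.87, SE 0.18), S100A11 (0.48, SE 0.08) and the chloride channel gene CLIC1 (0.46, SE 0.09) also rose.

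TMSB4X and S100A6 were called too (adjusted p = 0.00377 and 0.0148 with limma), at 0.45 and 0.61. Both calls were lost without treated replicate 2 (adjusted p = 0.0557 and 0.182), and that of S100A6 also without DMSO replicate 2.

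The 8 largest losses in FPKM under the naming rule included HSPA8, SLC25A5 and THBS1. HSPA8, the constitutive HSP70 chaperone, stood at 486, 413 and 500 FPKM against 569 to 703 (median 628). SLC25A5, an ADP/ATP carrier, was at 220, 254 and 210 FPKM against 311 to 407 (median 355). THBS1, the matrix protein thrombospondin-1, was at 36.2, 38.0 and 41.9 FPKM against 132 to 163 (median 154). All groups were separate, with changes of -0.43, -0.63 and -1.95.

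CKS2, a CDK-binding subunit, fell by 0.75 (SE 0.08) and CAV1, the caveolar coat protein, by 0.46 (SE 0.06). The nucleolar chaperone NPM1 changed by -0.59 (adjusted p = 0.00285 with limma), a call lost without treated replicate 2 (adjusted p = 0.0541). The ribosomal stalk gene RPLP0 changed by -0.27 and was not called within the first library kind (adjusted p = 0.0581).

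Of 31 tested SRF and actin genes, 5 were higher and 12 lower (3 and 11 held), beside 19.1% and 15.6% over all tested genes. EZR, which links membranes to actin, rose by 1.05 (SE 0.06), and the actin crosslinker FLNC fell by 1.19 (SE 0.24) with overlapping libraries.

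Genes of chromosome segregation, which act after S phase, were mostly lower. Of 33 tested kinetochore and spindle checkpoint genes, 29 were lower and none higher, all 29 in all 3 analyses, and the list's median change was -0.63 against 0.03 over all genes. Without treated replicate 2 the count was 19. Of 28 mitotic kinesins and microtubule factors 19 were lower, all of which held (27 within the first library kind), and of 21 condensin and cohesin genes 10 were lower and 2 higher (10 and 0 held, and 17 were lower within the first kind). In bulk RNA, a smaller share of dividing cells and less RNA per cell cannot be told apart.

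ZWINT, a kinetochore scaffold, stood at 23.1, 23.5 and 29.9 FPKM against 54.9 to 69.5 (median 57.2). NCAPD3, a condensin II subunit, was at 7.70, 7.77 and 7.76 FPKM against 16.4 to 19.5 (median 16.8). CDCA5, the cohesin protector sororin, was at 11.3, 14.9 and 11.8 FPKM against 30.0 to 42.1 (median 38.3). In each, the highest treated library lay far under the lowest DMSO library, with changes of -1.20 (SE 0.07), -1.10 (SE 0.06) and -1.54 (SE 0.13). CENPM, a centromere protein, changed by -1.41 (SE 0.22), and by -0.77 within the first library kind.

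KIF18B, a kinesin that shortens microtubules, was at 2.99, 6.75 and 3.40 FPKM against 6.66 to 14.8 (median 13.5), and KIFC1, a centrosome-clustering kinesin, at 21.8, 29.0 and 22.2 against 35.8 to 55.9 (median 52.3). Only KIF18B overlapped, through DMSO replicate 2, and the changes were -1.41 (SE 0.24) and -1.0 (SE 0.14). Their promoters are shown because the DREAM complex represses such genes through the cell cycle genes homology region, searched here as TTTGAA on both strands. Both genes were chosen by size of fall among list members lower in all 3 analyses whose promoter held TTTGAA. The matches shown were thus a condition of the choice. The windows run from 250 bases before to 50 after the start, from RefSeq on GRCh38.p14, a build other than the hg19 of the deposited values, with matches in capitals.
KIF18B, chr17:44947724-44948023, minus strand: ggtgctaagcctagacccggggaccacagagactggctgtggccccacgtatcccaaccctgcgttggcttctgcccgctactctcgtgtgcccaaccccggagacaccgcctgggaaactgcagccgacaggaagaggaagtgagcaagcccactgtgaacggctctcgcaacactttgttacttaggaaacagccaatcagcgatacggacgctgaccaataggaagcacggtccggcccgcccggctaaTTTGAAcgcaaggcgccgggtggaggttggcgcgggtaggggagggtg
KIFC1, chr6:33391573-33391872, plus strand: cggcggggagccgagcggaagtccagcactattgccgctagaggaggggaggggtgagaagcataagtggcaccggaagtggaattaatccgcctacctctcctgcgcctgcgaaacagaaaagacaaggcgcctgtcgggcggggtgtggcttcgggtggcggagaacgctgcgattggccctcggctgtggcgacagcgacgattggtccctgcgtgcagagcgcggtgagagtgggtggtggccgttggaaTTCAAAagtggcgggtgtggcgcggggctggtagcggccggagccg
TTTGAA was in 19 of the 26 list promoters found (73.1%), against 15.4% of all 27305 RefSeq promoters and 9.59% of the 9269 tested genes with one. It was in 13 of the 17 called lower and 6 of the 9 others. A match is a string of letters, not a site shown to be bound.

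Repair by recombination was lower in nearly its whole list. Of 30 tested recombination and Fanconi genes 27 were lower, all in all 3 analyses, with a median change of -1.02. XRCC2, which serves strand exchange in recombination, stood at 0.556, 1.10 and 1.14 FPKM against 3.93 to 8.09 (median 4.67), a change of -1.97 (SE 0.19). EXO1, a nuclease that resects DNA ends, was at 2.72, 2.55 and 4.39 FPKM against 11.8 to 17.0, a change of -1.92 (SE 0.14). Both gaps were wide. The XRCC2 promoter is given, with the E2F motif GCGGGAA in capitals. XRCC2 was chosen by size of fall among list members lower in all 3 analyses whose promoter held this motif.
XRCC2, chr7:152676092-152676391, minus strand: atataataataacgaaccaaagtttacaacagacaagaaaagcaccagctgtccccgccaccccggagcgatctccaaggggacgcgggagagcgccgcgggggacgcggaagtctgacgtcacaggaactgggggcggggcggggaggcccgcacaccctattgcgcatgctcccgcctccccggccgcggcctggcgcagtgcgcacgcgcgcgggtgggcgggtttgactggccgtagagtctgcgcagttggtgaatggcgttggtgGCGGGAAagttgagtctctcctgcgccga
GCGGGAA, searched on both strands, was in 12 of 25 list promoters found (48.0%), in 6.56% of all RefSeq promoters and in 10.7% of those of tested genes. Over tested genes, it was in 16.2% of the 1503 promoters of genes lower in all 3 analyses and in 6.57% of the 1659 of higher genes. Neither the S phase genes set aside nor the recombination list itself was left out of these shares.

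Of 23 mismatch and base excision repair genes 10 were lower and 1 higher (9 and 1 held). The uracil glycosylase gene UNG fell by 1.37 (SE 0.09) and the glycosylase gene NEIL3 by 1.38 (SE 0.12).

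Genes that build ribosomes were lower as well. Of 69 tested nucleolar assembly factors 54 were lower and none higher, 51 in all 3 analyses, with a median change of -0.60. BYSL, needed for the small subunit, stood at 14.2, 18.9 and 13.7 FPKM against 25.7 to 39.4 (median 37.5). EBNA1BP2, a large-subunit factor, was at 25.0, 19.9 and 21.9 FPKM against 43.3 to 50.4 (median 47.2). Neither overlapped, with changes of -1.17 (SE 0.13) and -1.08 (SE 0.08). POLR1E, an RNA polymerase I subunit, fell by 1.53 (SE 0.08) and POLR3G, of RNA polymerase III, by 1.26 (SE 0.20), in a list with 15 of 38 lower and 3 higher (14 and 2 held). The BYSL promoter is given because MYC binds the E-box CACGTG, which reads the same on both strands and is in capitals. BYSL was chosen by size of fall among nucleolar genes lower in all 3 analyses whose promoter held CACGTG.
BYSL, chr6:41921249-41921548, plus strand: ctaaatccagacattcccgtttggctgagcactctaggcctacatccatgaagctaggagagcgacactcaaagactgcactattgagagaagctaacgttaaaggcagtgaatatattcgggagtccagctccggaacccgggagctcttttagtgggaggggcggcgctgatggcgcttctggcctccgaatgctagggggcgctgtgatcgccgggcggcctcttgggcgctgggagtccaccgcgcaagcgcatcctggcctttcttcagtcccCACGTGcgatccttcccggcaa
CACGTG was in 21 of the 60 nucleolar promoters found (35.0%), 7.43% of all RefSeq promoters and 10.3% of those of tested genes. The nucleolar genes with it had a median change of -0.82 and those without it -0.58.

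The ribosomal proteins themselves moved less. Of 76 cytosolic ribosomal protein genes 17 were lower and none higher (15 held, 9 were lower without treated replicate 1, and 28 with voom), with a median change of -0.20, and RPS7 fell by 0.45 (SE 0.09). Of 73 mitochondrial ribosomal protein genes 29 were lower (24 held), and 19 without treated replicate 1 or 3. Translation factors had 17 of 48 lower and 2 higher (15 and 1 held), led by EIF4EBP1, the inhibitor of cap-dependent initiation, at -1.31 (SE 0.26), and -0.74 within the first library kind. Cytosolic aminoacyl-tRNA synthetases had 11 of 22 lower and 2 higher (all held), led by FARSB at -1.0 (SE 0.11).

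Nucleotide synthesis genes were mostly lower. Of 22 purine and pyrimidine synthesis genes 18 were lower and none higher, all 18 in all 3 analyses, with a median change of -0.72. CTPS1, the CTP synthase of dividing cells, stood at 4.53, 5.18 and 5.21 FPKM against 16.8 to 19.3 (median 17.8), a change of -1.74 (SE 0.07). PSAT1, of serine synthesis, was at 12.5, 11.1 and 14.4 FPKM against 31.3 to 43.4 (median 34.5), a change of -1.43 (SE 0.09). The groups did not overlap in either. The mitochondrial folate enzyme MTHFD2 fell by 1.17 (SE 0.11), and 11 of 20 one-carbon genes were lower and 2 higher (11 and 1 held).

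ODC1, the first enzyme of polyamine synthesis, fell by 1.18 (SE 0.07), and SAT1, which acetylates polyamines for export, rose by 0.74 (SE 0.11). Of 23 amino acid transporters 9 were lower and 4 higher (9 and 3 held), with a median change of -0.27, and of -0.03 with library kind terms. SLC7A5, the leucine transporter LAT1, stood at 13.2, 22.4 and 10.3 FPKM against 32.2 to 70.7 (median 67.9), and its partner SLC3A2 at 10.2, 13.8 and 9.08 against 16.8 to 29.4 (median 25.2). Treated libraries lay below DMSO in both, with changes of -1.92 (SE 0.28) and -1.09 (SE 0.17). The arginine transporter gene SLC7A1 fell by 1.21 (SE 0.13).

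Other machinery of growing cells was lower in part. Of 51 nuclear pore and karyopherin genes 31 were lower and 1 higher (30 and 0 held), led by the pore membrane protein NDC1 and the Ran exchange factor RCC1, both at -1.13 (SE 0.11). Of 46 spliceosome core genes 25 were lower and 1 higher (24 and 0 held), and SNRNP40 fell by 1.08 (SE 0.08). Of 36 chaperone genes 20 were lower and 1 higher (20 and 0 held), the mitochondrial chaperonin HSPD1 falling by 0.85 (SE 0.11). Of 35 proteasome subunit genes 10 were lower and none higher (all held, and 20 were lower within the first library kind), with PSMD2 at -0.58 (SE 0.05).

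**Figure D3:**
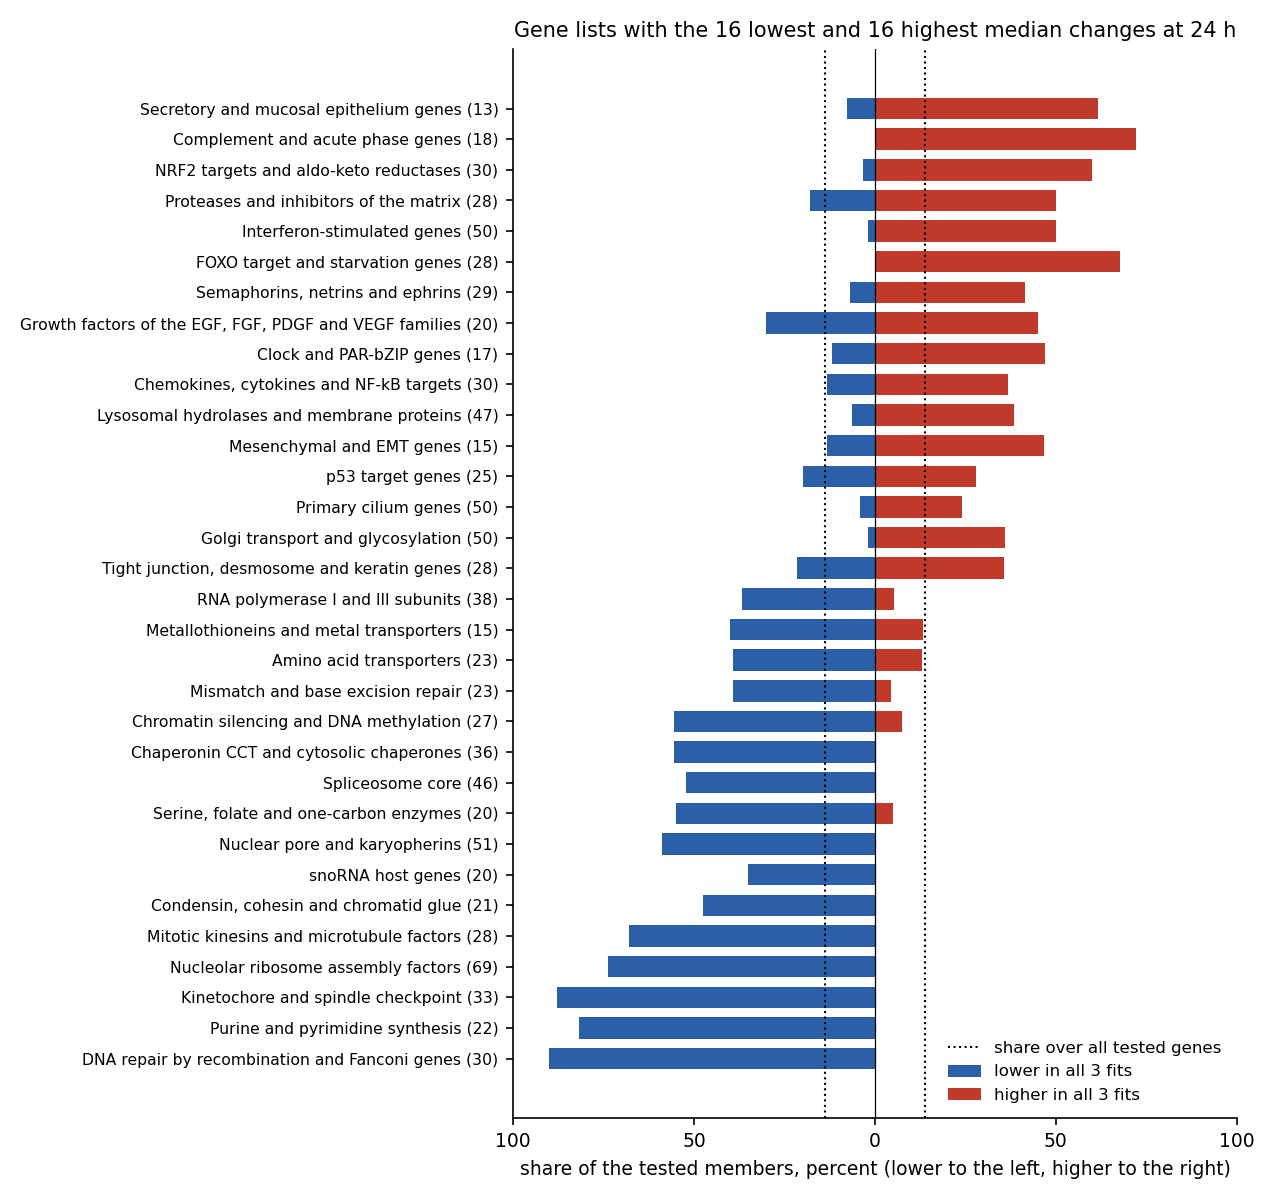
Share of the tested members (number in brackets) called lower (blue, to the left) or higher (red, to the right) in all 3 analyses, for the lists with the 16 lowest and the 16 highest median changes among those reported here. Dotted lines mark the 13.7% found in each direction over all tested genes; recombination repair and kinetochore lists are nearly all lower, and complement and FOXO lists are mostly higher.

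Endomembrane genes moved the other way. Of 47 lysosomal genes 22 were higher and 3 lower (18 and 3 in all 3 analyses, 33 and 3 within the first library kind), with a median change of 0.30. Of 50 Golgi and glycosylation genes 22 were higher and 1 lower (18 and 1 held), and of 31 endoplasmic reticulum genes 14 were higher and 2 lower (14 and 1 held). Of 46 proton pump and autophagy genes 19 were higher and 1 lower (12 and 1 held).

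ST3GAL5, which makes the ganglioside GM3, stood at 7.86, 7.87 and 6.27 FPKM against 2.01 to 2.98 (median 2.19), and GALNT12, which starts mucin-type glycans, at 6.74, 7.5 and 7.56 against 2.28 to 3.29 (median 2.70). The groups were separate, with changes of 1.48 (SE 0.10) and 1.28 (SE 0.11). The lysosomal protease gene CTSL rose by 0.66 (SE 0.10) and CTSO by 0.88 (SE 0.13). MAP1LC3B, the autophagosome protein LC3B, rose by 0.71 (SE 0.09), and TFEB, the regulator of lysosomal genes, by 1.01 (SE 0.28), a call lost without treated replicate 2 (adjusted p = 0.0625 with limma). DNAJB9 and HERPUD1, which serve protein folding and disposal in the endoplasmic reticulum, rose by 0.79 (SE 0.12) and 0.71 (SE 0.10).

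FOXO target and starvation genes were mostly higher. Of 28 FOXO target and starvation genes 19 were higher, all 19 in all 3 analyses, with a median change of 0.44. The 1 lower member did not hold in all 3. KLHL24 stood at 5.25, 4.10 and 5.07 FPKM against 1.44 to 2.15 (median 1.81), a change of 1.21 (SE 0.11). MXI1, a MYC antagonist, was at 11.5, 9.33 and 12.4 FPKM against 4.63 to 5.13 (median 4.82), a change of 1.11 (SE 0.11), and the factor FOXO4 itself rose by 1.11 (SE 0.17). Neither KLHL24 nor MXI1 overlapped between groups.

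The quiescence list was mixed, with 10 of 27 higher and 8 lower (10 and 7 held). BTG1, an antiproliferative deadenylation factor, stood at 31.7, 27.4 and 30.9 FPKM against 12.1 to 14.9 (median 13.1), a change of 1.15 (SE 0.09). CDKN1C, the CDK inhibitor p57, was at 3.48, 7.30 and 4.28 FPKM against 0 to 2.35 (median 2.05), a change of 1.53 (SE 0.34) that was not called when only the groups compared were fitted. FAM46C, a poly(A) polymerase that restrains growth, rose by 1.20 (SE 0.09). p53 target genes had 10 of 25 higher and 5 lower (7 and 5 held), with TP53INP1 at 1.42 (SE 0.12).

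CRY1, a repressor of the circadian clock, fell by 1.16 (SE 0.07) in a clock list with 9 of 17 higher and 2 lower (8 and 2 held). Of 50 primary cilium genes 20 were higher and 3 lower (12 and 2 held), and 13 were higher without treated replicate 3. BBS9, of the complex that loads cilia, rose by 1.01 (SE 0.13).

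The lists of epithelial and secretory genes had more higher than lower members. Of 13 tested secretory and mucosal genes 8 were higher and 1 lower, the same numbers in all 3 analyses, with a median change of 1.29. The list names 37 genes, and the rest were too low to test or absent from the table. MUC1, a membrane mucin, stood at 16.4, 21.2 and 11.2 FPKM against 1.39 to 7.41 (median 5.31), a change of 1.71 (SE 0.26). The secreted trefoil peptide gene TFF1 rose by 1.60 (SE 0.35), a call lost when only the groups compared were fitted.

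Of 28 junction, desmosome and keratin genes 12 were higher and 6 lower (10 and 6 held). JUP, the junction protein plakoglobin, stood at 30.9, 45.0 and 18.9 FPKM against 3.76 to 13.0 (median 11.2), and KRT19, a simple epithelial keratin, at 255, 320 and 202 against 85.1 to 131 (median 125). Both groups were separate, with changes of 1.65 (SE 0.28) and 1.11 (SE 0.15). The tight junction gene CLDN7 rose by 1.38 (SE 0.24). Mesenchymal genes had 7 of 15 higher and 3 lower (7 and 2 held), including the adhesion gene CDH11 at 0.76 (SE 0.09).

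Matrix genes went both ways, with 16 of 37 higher and 7 lower (15 and 7 held). FN1, fibronectin, stood at 207, 209 and 204 FPKM against 49.0 to 93.8 (median 81.3), a change of 1.48 (SE 0.12), and LTBP1, which anchors latent TGF-beta, at 22.5, 24.6 and 26.7 against 7.09 to 11.3 (median 9.56), a change of 1.33 (SE 0.09). EFEMP1, fibulin-3, was at 27.8, 23.9 and 33.9 FPKM against 69.3 to 83.9 (median 73.2), a change of -1.37 (SE 0.08). None of these overlapped. Integrin and focal adhesion genes had 15 of 35 higher and 1 lower (13 and 1 held), with ITGB4, of hemidesmosomes, at 1.73 (SE 0.27) and the collagen receptor ITGA2 at 1.21 (SE 0.13). The aggrecanase-like protease gene ADAMTS9 rose by 1.37 (SE 0.10), among 14 of 28 matrix proteases and inhibitors that were higher and 5 that were lower, all of which held.

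Each list of immune genes had more higher than lower members. Of 50 tested interferon-stimulated genes 32 were higher and 1 lower (25 and 1 in all 3 analyses), with a median change of 0.44. GBP2, an interferon-induced GTPase, stood at 24.1, 19.2 and 25.6 FPKM against 7.05 to 7.77 (median 7.34), and IFI35 at 32.1, 36.2 and 25.4 against 5.23 to 15.7 (median 13.1). Treated libraries lay above DMSO in both, with changes of 1.56 (SE 0.10) and 1.39 (SE 0.19).

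The antiviral genes IFITM1 and SAMD9 changed by 0.98 (SE 0.23) and 0.93 (SE 0.19). They were chosen by size of rise among members higher in all 3 analyses whose promoter held GAAANNGAAA, and not every chromosome was open to the choice. GAAANNGAAA is the core of the interferon-stimulated response element and is in capitals here. Matches may overlap each other.
IFITM1, chr11:313790-314089, plus strand: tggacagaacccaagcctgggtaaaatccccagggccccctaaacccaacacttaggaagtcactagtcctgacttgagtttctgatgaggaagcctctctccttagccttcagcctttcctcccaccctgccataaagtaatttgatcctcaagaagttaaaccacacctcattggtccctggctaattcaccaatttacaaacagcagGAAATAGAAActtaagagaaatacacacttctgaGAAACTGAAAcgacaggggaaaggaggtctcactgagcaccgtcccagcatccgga
SAMD9, chr7:93117930-93118229, minus strand: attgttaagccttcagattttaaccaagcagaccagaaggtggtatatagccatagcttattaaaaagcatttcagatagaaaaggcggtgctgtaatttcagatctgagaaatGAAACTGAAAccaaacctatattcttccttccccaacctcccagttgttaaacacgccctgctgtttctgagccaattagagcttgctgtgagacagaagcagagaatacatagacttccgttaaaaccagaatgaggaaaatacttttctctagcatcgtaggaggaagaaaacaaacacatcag
The motif was in 26 of 39 list promoters found (66.7%), in 3.65% of all RefSeq promoters and in 2.97% of those of tested genes. It was in 13 of the 20 called higher in all 3 analyses and in 13 of the other 19, and list members with and without it had median changes of 0.47 and 0.46. Over tested genes, 3.01% of the higher and 2.33% of the lower promoters held it.

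Of 18 complement and acute phase genes 13 were higher and none lower, all 13 in all 3 analyses, with a median change of 0.54. SERPINA1, alpha-1 antitrypsin, stood at 20.1, 21.2 and 20.5 FPKM against 10.8 to 12.8 (median 11.7), a change of 0.78 (SE 0.07). Of 32 antigen presentation genes 13 were higher and 3 lower (12 and 2 held). HLA-DRA, a chain of MHC class II, was at 182, 169 and 166 FPKM against 95.2 to 113 (median 104), a change of 0.72 (SE 0.07). HLA genes have close copies, between which short single reads may be split. Chemokine, cytokine and NF-kB genes had 14 of 30 higher and 5 lower (11 and 4 held, and 2 were lower without treated replicate 1), with the adhesion receptor VCAM1 at 0.95 (SE 0.13).

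Growth factor genes had 9 of 20 higher and 6 lower, and receptor tyrosine kinase genes 3 of 20 higher and 6 lower, all of which held. Over all tested genes 19.1% were higher and 15.6% lower. AREG, an EGFR ligand, stood at 160, 126 and 161 FPKM against 51.5 to 66.4 (median 53.6), while HBEGF, another EGFR ligand, was at 9.09, 9.77 and 8.12 against 21.1 to 30.1 (median 21.7). Neither overlapped, with changes of 1.42 (SE 0.14) and -1.33 (SE 0.07). The receptor kinase gene AXL was at 75.2, 86.6 and 68.8 FPKM against 165 to 207 (median 186), a change of -1.28 (SE 0.09), and EPHA4, an ephrin receptor, rose by 1.18 (SE 0.13).

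Of 29 ERK feedback genes 12 were higher and 3 lower (all held). SPRED1, a Ras-ERK inhibitor, rose by 1.54 (SE 0.17), and FOSL1, an AP-1 subunit that follows ERK activity, fell by 1.33 (SE 0.20). WNT, Notch and Hedgehog genes had 12 of 32 higher and 2 lower (11 and 2 held), with the WNT receptor FZD1 at 1.14 (SE 0.13). Semaphorin, netrin and ephrin genes had 12 of 29 higher and 2 lower (all held), where SEMA7A, a membrane-anchored semaphorin, fell by 1.64 (SE 0.20) and the secreted SEMA3F rose by 1.03 (SE 0.21).

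NRF2 target genes were mostly higher, and metal genes were more often lower. Of 30 NRF2 target and aldo-keto reductase genes 18 were higher and 1 lower, the same in all 3 analyses, and AKR1C2 rose by 1.35 (SE 0.09), although AKR1C genes are near-identical copies that share reads. Metallothioneins and metal transporters had 3 of 15 higher and 6 lower (2 and 6 held), with a median change of -0.26. Against that direction, SLC40A1, the iron exporter ferroportin, stood at 15.9, 17.4 and 20.1 FPKM against 5.38 to 7.63 (median 6.03), a change of 1.43 (SE 0.11) with no overlap. SGK1, a kinase gene induced by glucocorticoids, fell by 1.22 (SE 0.07) while TSC22D3 rose, and the glucocorticoid list had 6 of 15 higher and 2 lower (all held). BCL2, which blocks apoptosis, fell by 0.98 (SE 0.10) from a DMSO median of 0.787 FPKM (a change of -2.32 with voom), and BMF, which promotes it, rose by 0.87 (SE 0.13). The BCL2 family as a list had 3 of 14 higher and 2 lower (3 and 1 held), with a median change of -0.08.

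Lists of energy metabolism are read against the 19.1% higher and 15.6% lower over all genes. Nuclear respiratory chain genes had 3 of 53 higher and 8 lower, none higher and 5 lower in all 3 analyses, with a median change of -0.03. Without treated replicate 1 these counts were 0 and 3. TCA cycle genes had 3 of 31 higher and 8 lower (2 and 7 held, and 5 were lower without treated replicate 1), with IDH1, the cytosolic isocitrate dehydrogenase, at 0.76 (SE 0.09) and fumarase, FH, at -0.68 (SE 0.09). Glycolysis genes had 4 of 23 higher and 5 lower (all held), with the glucose transporter gene SLC2A3 at 1.02 (SE 0.07). Fatty acid oxidation had 10 of 28 higher and 3 lower (7 and 2 held), with the thiolase gene ACAA2 at 0.86 (SE 0.11). A call missed does not show that a gene was unchanged; for 4427 genes (27.9%) the 95% interval lay within 0.5 of 0.

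Far fewer genes were called at 6 h than at 24 h. At 1000 nM, 319 genes were called at 6 h against the DMSO libraries of that time (2.01%), and 278 of them were called in the same direction at 24 h. This is 87.1% of the 6 h calls and 5.05% of the 24 h calls. The effect itself differed between 24 and 6 h in 2398 genes (15.1%), 4347 with library kind terms. Opposite directions were called in 6 genes, which were picked after their values were seen. They are KIF20A, GEM, STOX1 and EMP2, higher at 6 h and lower at 24 h, and HAS2, the hyaluronan synthase, and DNMBP, the reverse. KIF20A, a kinesin of cytokinesis, changed by 0.22 and -0.39. The 24 h call of HAS2 was lost with library kind terms (adjusted p = 0.108 with limma).

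Under the naming rule, the genes with the widest difference between times had barely moved at 6 h, and choosing by this difference favours such genes. Outside the rule, NOX5, PI16 and AGR2 differed by 3.16, 2.64 and 2.65, with changes of 0.23, 0.15 and 0.06 at 6 h. CYR61 differed by -1.87 but had already changed by -2.28 at 6 h. Of the genes under the rule, PLAC8 was at -0.30 at 6 h, AP1M2 at -0.02, IL11 at -0.33 and KCNQ5-IT1 at 0.31. Their 24 h minus 6 h differences were -2.23, -2.10, -2.0 and -2.36. On the higher side C9orf152 stood at 0.10, MAOB, a mitochondrial amine oxidase, at -0.12, PLXNA2 at 0.09 and the trefoil peptide TFF2 at -0.09, with differences of 1.90, 1.84, 1.73 and 1.67. TFF2 lost its 24 h call when only the groups compared were fitted. Of the nucleolar genes 17 of 69 were already called lower at 6 h, against 1.3% of all tested genes, with a median of -0.30, and no kinetochore gene was (median -0.02).

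Between 1000 and 300 nM at 24 h, 2 genes of 15866 were called with limma (0.0126%), CTGF at -0.53 (SE 0.08) and DKK1, a WNT inhibitor, at -0.49 (SE 0.08). They fall outside the rule for other genes and are named because the count is small. An unadjusted p under 0.05 was reached by 852 genes (5.37%), and voom also called 2. Without treated replicate 2 the count was 92. The 95% interval of this difference reached 0.38 to either side in the median gene, on the log2 scale. The 300 and 100 nM comparisons share the DMSO libraries with that at 1000 nM and called 4864 and 3122 genes (30.7% and 19.7%). Kinetochore genes had medians of -0.52, -0.73 and -0.63 at 100, 300 and 1000 nM, purine and pyrimidine synthesis -0.41, -0.66 and -0.72, and FOXO targets 0.31, 0.41 and 0.44. Replicates 1 and 3 at 1000 nM and replicate 2 at 300 nM were of the second library kind, while all replicates at 100 nM were of the first. With library kind terms the 1000 nM medians of these lists were -0.81, -0.72 and 0.415, and within the first kind the kinetochore median was -0.86. The smaller kinetochore median at 1000 than at 300 nM is therefore not read as a dose effect. PLAC8 was at -1.13, -2.12 and -2.52, and TSC22D3 at 1.37, 2.06 and 2.23.

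**Figure D4:**
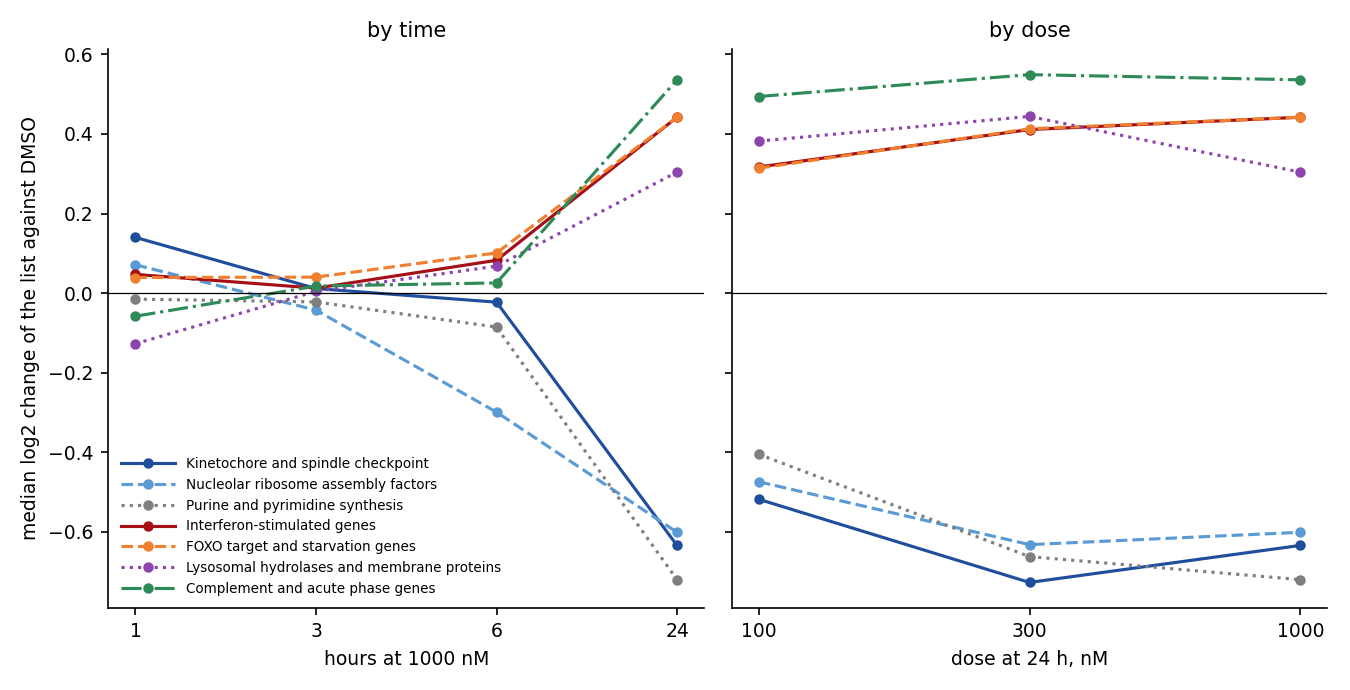
Median log2 change against DMSO of the same time for 7 gene lists, by hours at 1000 nM (left) and by dose at 24 h (right); each point is the median over a list's tested genes. At 6 h only the nucleolar list lies well away from 0 (-0.30), and the purine and pyrimidine list stands at -0.41, -0.66 and -0.72 at 100, 300 and 1000 nM, each against the same DMSO libraries. No library kind terms enter these medians, and the doses differ in their library kinds.

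Markers of the cell line were checked in the 9 libraries. ESR1 was at 0 in all 9 libraries, and PGR and FOXA1 reached at most 0.00513 and 0.0198 FPKM. VIM averaged 508 FPKM in treated and 417 in DMSO libraries, and CD44 151 and 111. Of 8 mesenchymal markers 4 were higher and 2 lower, and of 7 tested luminal markers 4 were higher and 2 lower, all of which held, with the summed luminal level at 397 to 570 FPKM against 300 to 408. The 2 lower luminal markers were GATA3 (-0.62, SE 0.15) and KRT18 (-0.46, SE 0.08), and KRT8 changed by 0.03 and was not called. The call of GATA3 was lost without treated replicate 3 (adjusted p = 0.087 with limma). Among the higher ones, EPCAM, an epithelial adhesion molecule, changed by 0.74 with overlapping libraries, and CDH1, E-cadherin, remained at 0.704 to 1.09 FPKM.

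Markers of other cell types were low or near 0. All 3 endothelial markers in the table were under 1 FPKM, the leukocyte markers PTPRC, CD3E and ITGAM too, and the fibroblast markers COL1A1, COL3A1 and DCN likewise. The fibroblast gene COL1A2 averaged 5.41 FPKM in treated and 3.53 in DMSO libraries and was called higher (0.60, adjusted p = 0.00561 with limma), a call lost when only the groups compared were fitted and with array weights. LUM and PDGFRB of that list reached 1.37 and 1.62 FPKM and CD14 of the leukocyte list 2.29, none of them called. LYZ, lysozyme, of the leukocyte list, was at 1.53, 2.45 and 2.69 FPKM against 0.218 to 1.17, a rise of 1.38. The fibroblast list summed to 6.74 to 8.47 FPKM in treated and 3.54 to 7.17 in DMSO libraries, and the leukocyte list to 3.01 to 4.80 and 1.17 to 2.39. Their part in the other results was not tested. Messages encoded in mitochondria summed to 16000 to 17900 FPKM in treated and 11400 to 14900 in DMSO libraries, and 1 of 13 was called higher (MT-ND3, adjusted p = 0.0349 with limma), none in all 3 analyses. The count was 10 with library kind terms, 6 within the first kind and 0 with voom, and the list's median change was 0.41, 0.43, 0.42 and 0.34 in limma over all libraries and these 3 fits, in that order. The part of this shift in the other results was not tested.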

How the data were processed

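RNA-seq of 60 MDA-MB-231 libraries was analysed, poly(A) RNA in stranded single-read libraries per the labels' protocols. The authors deposited log2(FPKM + 1) values for 38342 gene names. Per the submitters' processing notes, the build was hg19, and STAR 2.4.2a, featureCounts 1.4.6-p2, Subread and DESeq2 were used; their annotation release was not given in the sources used here. Values were turned back to FPKM. Genes at 1 FPKM or more in at least 3 libraries (15866 of 36114 above 0) were tested on log2(FPKM + 0.5) with limma 3.58.1 in R 4.3.3, with 1 mean per group over all 60 libraries, so that groups share 1 estimate of the spread (44 residual degrees of freedom), trend and robust settings, and Benjamini-Hochberg adjustment over all tested genes at 0.05. Adjusted p-values are limma's.

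Whole reads were recovered from the steps of the FPKM for 99.7% of values above 0 (tolerance 0.01 read). Depths ranged from 0.475 to 86.5 M reads (median 11.2) and limit precision. On data simulated for the 24 h comparison, limma made more false calls than its threshold allows and voom did not. The simulated reads held no library kinds, so false calls that come from these kinds were not measured for either test. Calls are therefore given with those that held in 3 analyses. The library kinds were found in the values. Beside library kind terms and limma-voom, the alternatives were another pseudocount, no filter, median-of-ratios scaling, only the groups compared, the first kind only, array weights, and leaving out shallow or single libraries. Array weights with library kind terms were added after seeing the data.

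The members and lists were chosen with earlier results of these data known. Named genes were the 14 highest and 14 lowest changes and the 8 largest FPKM differences each way. They lay outside the lists set aside and outside genes named in earlier results of these data. They had at least 2 FPKM in 1 group, a call also with library kind terms and no overlap between groups. Added were up to 4 called members per list, the 4 highest and lowest of the other comparisons, all marker genes, and CYR61, CTGF, NOX5, PI16 and AGR2. Some genes that the rule names are not reported here.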

Additional observations from a re-analysis of the deposited data

Results flagged for a closer look

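In the 6 DMSO libraries, 32 named genes had 1 library far from the other 5, and 29 of these were DMSO replicate 2, the shallowest library and the only DMSO library of the second kind. Chance flags about 1 in 20 groups. Without it, 28 of these 29 genes kept their call at 1000 nM against DMSO, and S100A6 lost it (adjusted p = 0.0522 with limma). Replicate 2 was the highest DMSO library for GJB2 (8.51 FPKM), PLAC8 (20.4), KCNQ5-IT1 (3.67), RBM24 (3.60), XRCC2 (8.09), EXO1 (17.0), NPM1 (397), NCAPD3 (19.5) and ZWINT (69.5). The same held for NEIL3 (14.0 FPKM), PSAT1 (43.4), MTHFD2 (13.1), FH (65.6), CDH11 (14.5), EFEMP1 (83.9), EZR (127), AREG (66.4) and SAMD9 (14.5). It was the lowest for MALL (5.87 FPKM), AP1M2 (6.53), S100A6 (1310), CST1 (230), CDCA5 (30.0), UNG (33.8), BYSL (25.7), SLC7A1 (17.5) and FOXO4 (0.599), and TMPRSS2 and TFF2 were listed at 0 in it. The others were NOX5, highest in DMSO replicate 5 (1.08 FPKM), and RCC1 and KRT19, lowest in DMSO replicate 4 (24.6 and 85.1 FPKM).

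The 1000 nM effect differed between 24 and 6 h in 2398 genes by the limma test of the difference. The naming rule leaves out genes set aside or named before. Under it, the widest differences on the log2 scale were C9orf152 at 1.90, MAOB at 1.84, PLXNA2 at 1.73 and TFF2 at 1.67. On the lower side they were KCNQ5-IT1 at -2.36, PLAC8 at -2.23, AP1M2 at -2.10 and IL11 at -2.0. Outside the rule, NOX5 differed by 3.16, AGR2 by 2.65 and PI16 by 2.64.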

How the results depend on the processing

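The 5506 genes called at 1000 nM against DMSO became 8715 with array weights (4317 lower), 8597 with array weights and library kind terms (4081 lower), and 2987 when only the groups compared were fitted (1540 higher, 1447 lower). The 2 genes called between 1000 and 300 nM became 7541 with array weights, whose estimation stopped before convergence, 68 with weights and library kind terms, 8 with library kind terms, 61 without a filter, 5 with a pseudocount of 0.1, 5 without libraries under 2 M reads, and 0 when only the groups compared were fitted. The 2398 genes that differed between 24 and 6 h became 6935 with array weights, 6198 with weights and library kind terms, 3674 in the first kind, 4347 with library kind terms, and 1510 when only the groups compared were fitted. The cause was not tested. Leaving out 1 library gave 4399 to 5903 genes at 24 h (2371 to 3170 higher, 2028 to 2809 lower), 2 to 92 between doses and 1838 to 3054 between times. The named genes together with all tested marker and mitochondrially encoded genes, some of them not given above, made 168. Of these, 149 were called and 133 of the called genes kept their call in every alternative run, and none changed direction. No paired analysis was possible because the labels number the samples in 1 running series and give the groups no shared replicate numbers.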
